A study of Mus musculus with 2 samples.

Results

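Immunoglobulin light chains were followed through 168 genes of the 30905 in the count tables. The genes were chosen by symbol alone: the kappa constant gene Igkc, the 4 lambda constant genes (Iglc1 to Iglc4), 160 kappa variable segments (Igkv) and 3 lambda variable segments (Iglv). A B cell joins 1 V segment to a short J segment and a constant gene, and pairs the resulting light chain with a heavy chain to make its antibody. Kappa is normally rearranged before lambda, and a mature B cell or plasma cell usually displays light chains of a single type. In mice most antibodies carry kappa, and the lambda locus is small.

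The cells were CD45+ leukocytes sorted from colorectal cancer tissue of male C57BL/6 mice. All mice received the carcinogen azoxymethane at 12 mg/kg, then dextran sodium sulfate, which injures the colon lining, at 2.5% in 3 cycles of 7 days, each followed by 14 days of water. One group fed ad libitum, and the other received a fasting-mimicking diet (FMD), both from the second cycle on. Each diet had 1 droplet library (10x Genomics 3′ V3) of 4 pooled mice, so mice cannot be told apart and no difference between diets has a replicate check. The labels' extraction text also mentions normal colon. Values in square brackets are exact 95% intervals, which cover counting error only, and every log2 ratio is FMD over ad libitum.

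The filters kept 4855 ad libitum and 4607 FMD cells, with medians of 5503 and 5739 unique molecular identifiers (UMIs, each counting 1 captured RNA molecule) per cell. Clusters were named from marker genes. All 12 B cell markers were detected in at least 10% of B-like cells, and all 10 plasma cell markers in at least 10% of plasma-like cells. B-like cells numbered 2795 and 2501, plasma-like cells 91 and 32, germinal center B-like cells 71 and 83, and a B lineage cluster led by Bhlhe41 held 297 and 280. The libraries shared 4 barcodes among kept cells.

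The lambda constant genes are shown by their last 60 coding bases (GENCODE M21, GRCm38, minus strand), since 3′ libraries read from the 3′ end of a transcript. The stretches lie at chr16:19061752-19061811 for Iglc1, chr16:19198536-19198595 for Iglc2 and chr16:19065365-19065424 for Iglc3. Capitals mark bases that differ from Iglc2.
Iglc1: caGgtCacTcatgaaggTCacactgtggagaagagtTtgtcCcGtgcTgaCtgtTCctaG
Iglc2: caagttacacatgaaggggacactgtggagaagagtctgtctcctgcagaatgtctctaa
Iglc3: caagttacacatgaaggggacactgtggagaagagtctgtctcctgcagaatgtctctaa
Iglc1 differed from Iglc2 at 13 of these 60 bases, and Iglc3 at 0. Over their coding sequences Iglc2 and Iglc3 were 96.5% identical and Iglc1 and Iglc2 74.7%. Of the 50-base windows in the annotated transcripts, 7.65% of those in Iglc2 and 10.7% of those in Iglc3 occurred in the other gene, and 0% of those in Iglc1 or Igkc occurred in another member. Iglc2 and Iglc3 can thus be told apart only outside the shared windows, and their split is less certain than that of Iglc1. Igkc lies at chr6:70726435-70726966 on the plus strand, and its V segments spread over chr6:67555497-70704177, with 75 on the plus and 85 on the minus strand.

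The V segments the results turn on are shown by their last 60 bases in the same annotation. Capitals run from the codon of the conserved cysteine to the end of the segment, which encodes the germline start of the third complementarity-determining loop, the part that varies most between antibodies. The first pair comes from the lambda locus (chr16:19085017-19085076 and chr16:19260401-19260460, minus strand). The kappa segments lie at chr6:68271208-68271267 and chr6:68121768-68121827 on the plus strand, and at chr6:68631963-68632022 and chr6:70216858-70216917 on the minus strand.
Iglv1: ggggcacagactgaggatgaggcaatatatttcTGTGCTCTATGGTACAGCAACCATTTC
Iglv2: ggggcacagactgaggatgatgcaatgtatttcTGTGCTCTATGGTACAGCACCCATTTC
Igkv1-110: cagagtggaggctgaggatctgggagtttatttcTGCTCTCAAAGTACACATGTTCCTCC
Igkv1-117: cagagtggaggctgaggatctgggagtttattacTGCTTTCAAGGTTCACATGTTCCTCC
Igkv10-96: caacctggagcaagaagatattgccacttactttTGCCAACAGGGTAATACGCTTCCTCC
Igkv8-24: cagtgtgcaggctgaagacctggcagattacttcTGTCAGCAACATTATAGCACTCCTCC
Iglv1 and Iglv2 were 97.1% identical over their coding sequences, and Igkv1-110 and Igkv1-117 were 97.2% identical. Of the 50-base windows of Igkv1-110, 50.9% also occurred in Igkv1-117 or Igkv1-122, while Igkv8-24 shared 0%. Over the 160 Igkv genes, 45 shared no such window with another gene and 17 shared at least 50% of theirs, so calls between close relatives are uncertain.

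Light chain RNA was held by few cells. Plasma-like cells, which secrete antibody, were 1.87% of kept cells in the ad libitum library and 0.695% in the FMD library. They held 92.6% and 84.4% of all Igkc UMIs. The median plasma-like cell had 12070 Igkc UMIs in the ad libitum library and 13620 in the FMD library, against 22.0 per B-like cell in each. Light chain genes took 38.5% and 37.4% of all UMIs of plasma-like cells, against 0.60% and 0.579% in B-like cells.

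Over all kept cells the light chain genes were lower in the FMD library. Igkc had 1322569 and 600430 UMIs, a log2 ratio of -1.13 [-1.14, -1.13] per UMI outside immunoglobulin and mitochondrial genes, which is the scale of all expression ratios here. The 4 Iglc genes together had 110749 and 21276 UMIs, with a ratio of -2.37. Of 19 members with at least 100 UMIs over both libraries, 14 were at least 2-fold lower in the FMD library and 0 at least 2-fold higher. Of all 10700 genes of that depth, 0.766% were lower and 0.85% higher. The depth is a sum, so members rich in the more numerous ad libitum plasma-like cells reach it more easily. The part of this rule in the count of 14 was not tested. Outside plasma-like cells, 0 of 6 such members differed 2-fold in either direction (0.839% of all genes were higher and 0.387% lower), and Igkc stood at -0.09 [-0.10, -0.08]. Within plasma-like cells Igkc stood at 0.02 [0.01, 0.02].

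Plasma-like cells separated into a kappa and a lambda group. Each cell was called kappa or lambda when Igkc or the summed Iglc genes held over 50% of its constant UMIs. In the ad libitum library 7 of 91 plasma-like cells were lambda (7.69% [3.15, 15.2]), and in the FMD library 0 of 32 were (exact interval up to 10.9%). The 3 counts that a count of 0 allows would be 9.38% of the 32 cells. With cells thinned to 1000 UMIs, the setting used to compare classes, the counts were 6 of 90 (6.67%) and 0 of 32. The FMD library is too small to show whether its share was lower.

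**Figure D1:**
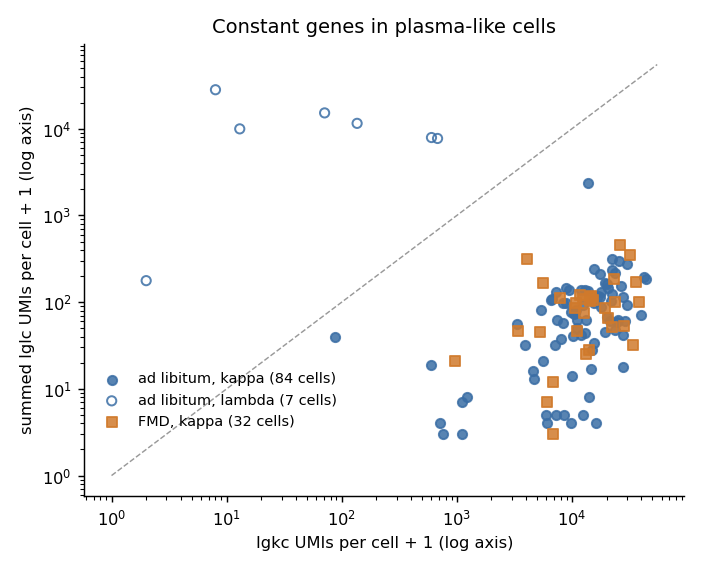
Summed Iglc UMIs against Igkc UMIs in each of the 123 plasma-like cells, with 1 added to each value and both axes on a log scale; the dashed line marks equal values. The 7 open circles are the ad libitum lambda cells, and all 32 FMD cells (squares) lie below the line.

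The 7 lambda plasma-like cells were all from the ad libitum library, and each had Igha, the IgA heavy chain, as its main isotype. Among kappa plasma-like cells Igha led in 77 of 84 ad libitum and 23 of 32 FMD cells. Lambda cells used 2 constant genes. Iglc1 led in 3 of them with 28004, 11182 and 11526 UMIs, and Iglc2 led in 4 with 9949, 7881, 7714 and 176 UMIs. The last of these cells was shallow, with 739 UMIs in all. The cell with 11182 Iglc1 UMIs also held 4040 of Iglc2. Igkc in the lambda cells ran from 1 to 679 UMIs with a median of 70.0.

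These few cells carried most lambda RNA of their library. A single cell held 28004 of the 55209 Iglc1 UMIs. Plasma-like cells as a class held 81.2% of Iglc UMIs and 94.9% of Iglc1 UMIs in the ad libitum library, against 15.8% and 30.8% in the FMD library. The log2 ratio of summed Iglc over kept cells was -2.37 with every cell, -1.98 without the cell richest in Iglc in each library, -0.50 without the lambda plasma-like cells and -0.25 without any plasma-like cell. The settings without plasma-like cells were chosen after the data were seen. Leaving out the 7 lambda plasma-like cells of 1 library thus moved the log2 ratio from -2.37 to -0.50.

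Within plasma-like cells 18 members had at least 100 UMIs. Of these, 9 were at least 2-fold lower in the FMD library, against 1.01% of 2581 genes, and 2 were at least 2-fold higher, against 0.542%. The depth is summed over 91 and 32 cells, so segments of the ad libitum library reach it more easily. Igkv12-41 (131 and 0 UMIs) and Igkv4-57 (113 and 0) reached it in that library alone. Igkv17-121 (0 and 43), Igkv5-43 (0 and 39) and Igkv6-25 (0 and 39) did not reach it. The part of this rule in the counts of 9 and 2 was not tested. The lambda constant genes were 3 of the 9. Iglc1 had 52366 and 928 UMIs (log2 ratio -4.52 [-4.62, -4.43]), Iglc2 34377 and 1995 (-2.81 [-2.88, -2.75]) and Iglc3 3221 and 444 (-1.57 [-1.71, -1.42]). The 7 lambda cells, all ad libitum, held 50714 of these Iglc1 UMIs and 29926 of the Iglc2 UMIs. The 84 and 32 kappa cells held 1652 and 928 Iglc1 UMIs and 4451 and 1995 Iglc2 UMIs. Their medians per cell were higher in the FMD library, at 6 and 8 Iglc1 and 33 and 41.5 Iglc2 UMIs. A single kappa cell of the ad libitum library held 2148 of the 3221 Iglc3 UMIs beside 13663 Igkc UMIs. The other 6 lower members were Igkv14-111, Igkv12-41, Igkv4-57, Igkv3-2, Igkv5-48 and Igkv8-28, and the higher ones were Igkv4-72 and Igkv4-55. Each of these segments was called in at most 4 cells of a library, so its sum stands for those cells.

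B-like cells, which carry antibody on their surface, had nearly the same share of lambda calls on either diet. At 1000 UMIs per cell and at least 3 constant UMIs, 158 of 2306 ad libitum cells (6.85% [5.85, 7.96]) and 131 of 1971 FMD cells (6.65% [5.59, 7.84]) were lambda. The log2 ratio of these shares was -0.04 [-0.39, 0.30]. Without thinning and with at least 10 constant UMIs, 110 of 2564 cells (4.29%) and 88 of 2275 cells (3.87%) were lambda, so the level of the share depended on the call while its ratio between diets stayed in that interval. A share of lambda above 80% of constant UMIs was met by 1.78% and 1.62% of cells.

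B-like cells were less sharply divided between kappa and lambda than plasma-like cells. Among B-like cells with at least 10 constant UMIs, 71.5% of ad libitum and 66.2% of FMD cells had a lambda share between 10% and 90%, and 0.741% and 1.05% were above 90%. Counts by steps of 10 percentage points from 60% up were 27, 11, 18 and 19 ad libitum cells and 22, 8, 7 and 25 FMD cells, so the FMD counts rose again above 90%. Among plasma-like cells 2 of 91 and 0 of 32 lay between those bounds. The 2 were a shallow cell with 87 Igkc and 39 Iglc UMIs and the cell rich in Iglc3 described above.

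**Figure D2:**
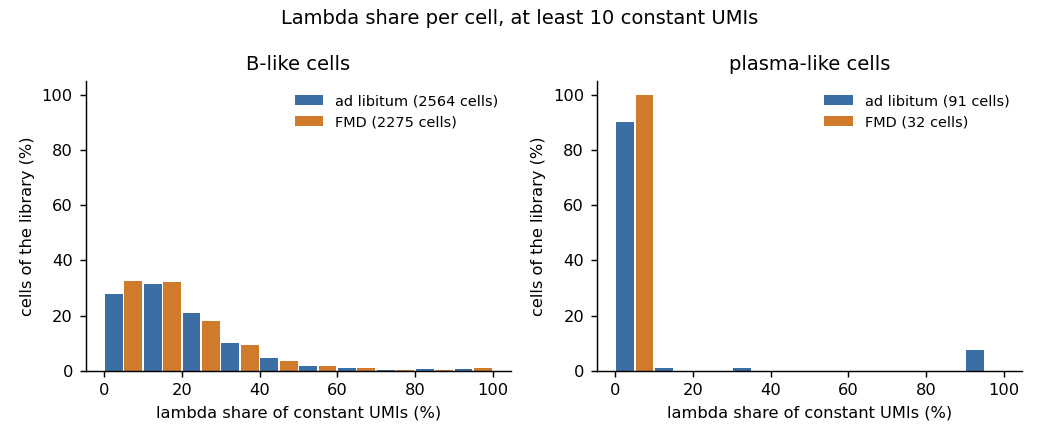
Lambda share of constant UMIs per cell, in steps of 10 percentage points, as a percent of the cells of each library with at least 10 constant UMIs. Most B-like cells (left) lie below 40%, with few between 70% and 90% and a small rise above 90% in the FMD library, while plasma-like cells (right) sit below 40% or above 90%.

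Most lambda UMIs of B-like cells were in cells called kappa, and most were Iglc2. Kappa-called B-like cells had a median of 24 Igkc UMIs in the ad libitum library and 25 in the FMD library, beside 3 Iglc2 UMIs in each, and Iglc2 was detected in 89.0% and 86.9% of them. T-like cells, which make no antibody, had Iglc2 in 7.90% and 5.39% of cells at higher depth (medians of 7176 and 7185 UMIs against 4948 and 5097 in B-like cells). Over all B-like cells, with no minimum of constant UMIs, Iglc2 was detected in 86.9% and 85.5%. Lambda-called B-like cells had a median of 11 and 9 Iglc2 UMIs beside 5.5 Igkc UMIs in each library. Their leading Iglc gene was Iglc2 in 89 of 110 and 70 of 88 cells and Iglc1 in 11 and 9.

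The annotation gives Iglc2 a 2-exon transcript of 606 bases that spans the joining segment Iglj2, beside the 458-base transcript of the constant exon. Igkc, Iglc1 and Iglc3 have single-exon transcripts only. Whether the Iglc2 UMIs of kappa cells come from rearranged genes cannot be read from gene counts.

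Among the lambda constant genes with at least 100 UMIs in B-like cells, Iglc1 differed most between the libraries. It had 1525 and 767 UMIs, 0.546 and 0.307 per cell (log2 ratio -0.87 [-1.0, -0.75]). Iglc2 had 11184 and 9247 UMIs (-0.16 [-0.20, -0.12]), Iglc3 had 3585 and 3282 (-0.01 [-0.08, 0.06]) and Igkc had 70149 and 63743 (-0.02 [-0.04, -0.01]). Of the 5 members with at least 100 UMIs in B-like cells, 0 differed 2-fold in either direction, against 0.0942% of 8497 genes each way.

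T-like cells showed the same order for Iglc1, with 346 and 33 UMIs, or 0.304 and 0.0278 per cell (-3.46 [-4.02, -2.94]). The B-like level minus the T-like level was 0.242 and 0.279 Iglc1 UMIs per cell, and 69.9 and 57.3 per 1000000 other UMIs, so the difference between libraries changed sign on 1 of those scales. For Iglc2 the T-like level was 2.67% and 3.37% of the B-like level per cell. For Iglc1 it was 55.6% and 9.07%. The part of this background in the B-like Iglc1 ratio was not tested further.

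Of the other constant genes, Igkc was also detected in more T-like cells of the ad libitum library. At 1000 UMIs per cell, Igkc was seen in 33.9% and 15.7% of T-like cells, Iglc1 in 4.78% and 0.427%, Iglc2 in 1.86% and 1.20%, and Iglc3 in 0.265% and 0.427%. Summed UMIs of Iglc2 (122 and 148) and Iglc3 (32 and 50) were slightly higher in the FMD library, with intervals of the log2 ratio that crossed 0. Igkc summed higher in FMD T-like cells (3587 and 10093 UMIs), but 2 FMD cells held over 500 Igkc UMIs each, the higher of them 4312. Without them the FMD level was 1.59 per cell, against 3.15 in the ad libitum library, which had no such cell. Of 3 members with at least 100 UMIs in T-like cells, 1 (Igkc) was 2-fold higher and 1 (Iglc1) 2-fold lower, against 0.204% and 0.3% of genes. Thinned calls were possible in 3.33% and 1.69% of T-like cells, and 4 of 38 and 3 of 20 of those were lambda.

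**Figure D3:**
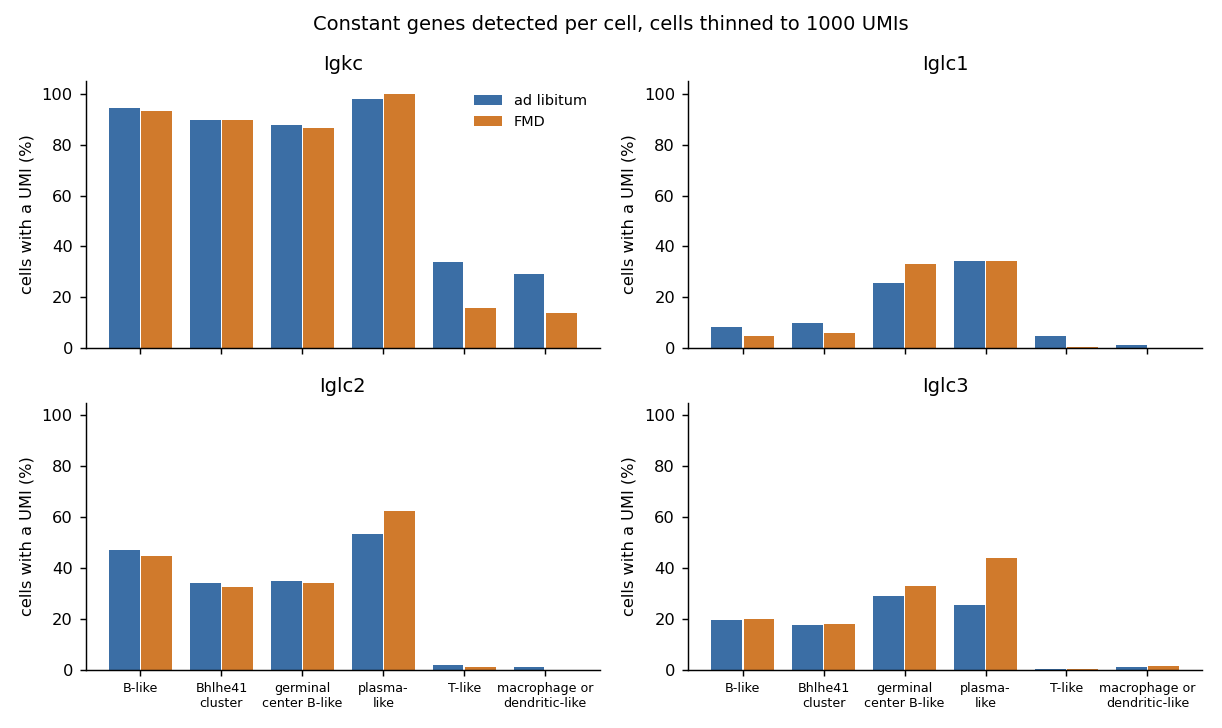
Percent of cells with at least 1 UMI of each constant gene after thinning every cell to 1000 UMIs, by class and library. Igkc was in 94.6% and 93.1% of B-like cells and 33.9% and 15.7% of T-like cells, while Iglc2 was in 47.0% and 44.9% of B-like and 1.86% and 1.20% of T-like cells.

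The B-like class held 7 clusters, and the largest was the cluster led by Pax5 and Bank1 in the ad libitum library (800 cells) and the cluster led by Fcrla and Scd1 in the FMD library (868 cells). With at least 10 constant UMIs and both libraries together, the lambda share was 3.33% [2.45, 4.42] in the Fcrla cluster and 3.73% [2.74, 4.97] in the Pax5 cluster. It was 4.22% [3.06, 5.66] in the cluster led by Egr3 and Myc, 5.46% [3.37, 8.31] in the one led by heat shock genes such as Hspa1a, and 1.95% [0.534, 4.92] in the one led by interferon-induced genes such as Ifit3. The highest shares were 5.80% [4.05, 8.01] in the cluster led by B3gnt7 and Scd1 and 7.00% [2.86, 13.9] in the smallest, led by Bcl11a and Siglecg (5 of 50 and 2 of 50 by diet). All of these intervals overlap their neighbours in that order. Between diets the Fcrla cluster had 22 of 586 and 24 of 795 lambda cells, and the Pax5 cluster 26 of 719 and 19 of 486.

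The Bhlhe41 cluster had 14 of 209 and 12 of 190 lambda cells at 1000 UMIs (6.70% and 6.32%). Without thinning and with at least 10 constant UMIs they were 19 of 268 (7.09%) and 9 of 247 (3.64%), a log2 ratio of -0.96 [-2.29, 0.25] in place of -0.08 [-1.33, 1.14]. Its Iglc1 level was higher than in B-like cells, at 200 and 211 UMIs per 1000000 others against 112 and 61.2. One FMD cell held 153 of the 436 Iglc1 UMIs there. Of 4 members tested by depth, 0 differed 2-fold between diets, against 0.0419% of genes higher and 0.168% lower.

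Germinal center B-like cells, in which antibody genes mutate and are selected, had more Igkc per cell than B-like cells, with medians of 83.0 and 94.0 UMIs. Their Igkc sums were 10440 and 10042 UMIs (log2 ratio -0.60), but 1 ad libitum cell held 4547. Without cells over 500 Igkc UMIs, 1 in each library, the means were 84.2 and 115 UMIs per cell, higher in the FMD library, at median depths of 12481 and 15571 UMIs. Iglc1 had 392 and 835 UMIs (0.54 [0.37, 0.72]). Lambda calls at 1000 UMIs were 1 of 55 and 6 of 66, with overlapping intervals ([0.0460, 9.72] and [3.41, 18.7]). With at least 10 constant UMIs and no thinning they were 0 of 53 and 1 of 76 (1.32%), so the FMD share of 9.09% was not kept with more UMIs per cell. Of 4 members, 0 differed 2-fold, against 0.328% of genes higher and 1.37% lower. T cell markers were detected in at least 10% of germinal center B-like cells for 7 of 13 ad libitum and 4 of 13 FMD genes. In B-like cells 0 of 13 were in either library. All 12 B cell markers reached that level in germinal center B-like cells, the most detected in 78.9% and 95.2% of cells. The part of this marker difference in the light chain values of the class was not tested.

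V segments were far more sparsely covered than constant genes. Over all kept cells Igkv UMIs were 2554 and 1135, which was 0.193% and 0.189% of the Igkc UMIs. At least 1 UMI was seen for 94 of the 160 Igkv genes, 80 with ad libitum feeding and 73 with FMD, and 66 had none. The 160 genes include some annotated as pseudogenes, and the 66 were not split by annotation. V calls, which needed at least 2 V UMIs with over 50% from 1 segment, were reached by 11 B-like cells in each library, so 0 segments came near the 20 called cells set for a comparison.

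B-like V UMIs were therefore summed. Of 82 segments with a UMI, Iglv3 led with 52 and 50 UMIs, followed by Iglv1 (28 and 15), Igkv1-117 (17 and 18), Igkv1-135 (15 and 14), Igkv1-110 (11 and 12) and Igkv10-96 (13 and 10). The 8 segments with at least 20 UMIs had log2 ratios whose intervals all crossed 0, the widest difference being Igkv17-121 with 15 and 7 UMIs (-0.89 [-2.42, 0.50]). Differences between diets were not detectable at this depth. By cells with a call over both libraries, Iglv3 led with 5, Igkv1-117 had 4, and Igkv19-93 and Igkv8-21 had 2 each. The other Igkv segments called in B-like cells had 1 cell each: Igkv1-110, Igkv1-135, Igkv10-96, Igkv12-46, Igkv16-104, Igkv17-121, Igkv17-127, Igkv3-5 and Igkv9-120. In germinal center B-like cells Igkv6-23 was called in 2 cells and 9 segments in 1 each. In the Bhlhe41 cluster 6 segments were called in 1 cell each.

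Most plasma-like cells gave a V call (78 of 91 ad libitum and 29 of 32 FMD cells), and the kappa cells were diverse. An Igkv segment could be called in 77 of 84 ad libitum and 31 of 32 FMD kappa cells when Igkv genes alone were counted, a restriction chosen after the data were seen. The median share of the top segment among a cell's Igkv UMIs was 100% and 97.6%. The calls fell on 36 and 20 segments, of which 16 were common to both libraries (44.4% of the ad libitum list and 80.0% of the FMD list). The inverse Simpson number, which counts equally used segments that would give the same diversity, was 21.4 and 13.9, and 77 and 31 cells are too unequal in number to compare them.

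Igkv1-110 led in each library, with 10 cells (13.0% [6.41, 22.6]) and 5 cells (16.1% [5.45, 33.7]). Igkv10-96 followed with 6 and 3 cells, and Igkv8-24 with 4 and 3. Igkv4-57 had 4 and 0 cells, Igkv4-55 and Igkv8-30 had 2 and 2, and Igkv12-46 had 1 and 2. Every segment's interval for the log2 ratio between diets included 0. By family, Igkv1 and Igkv4 led with 21 cells each, although the Igkv4 family has 33 genes and Igkv1 has 13. Igkv8 had 17 cells and Igkv10 11, while Igkv13, with 18 genes, had 0. All Igkv13 genes but Igkv13-84 and Igkv13-85 are annotated as pseudogenes, and the family sizes given here count pseudogenes.

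**Figure D4:**
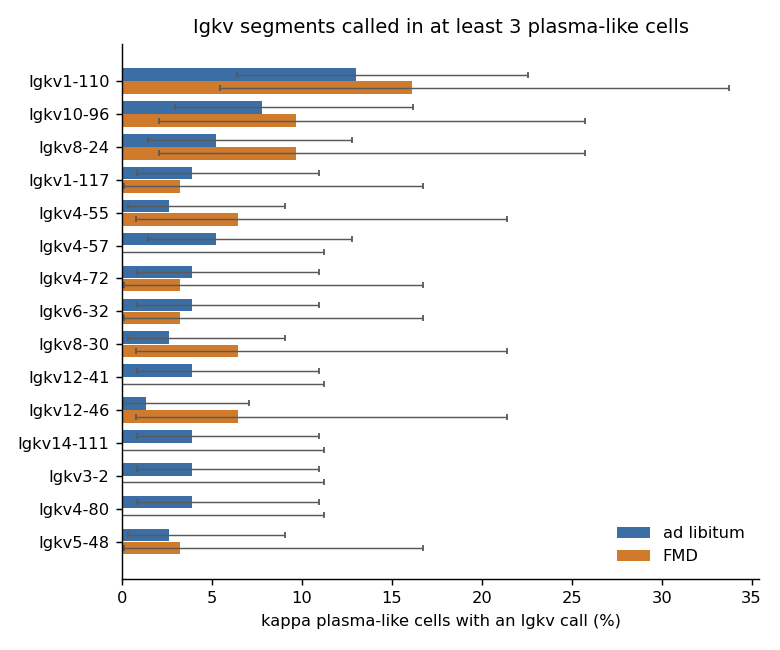
Percent of kappa plasma-like cells with an Igkv call (77 ad libitum, 31 FMD) that were called for each segment, for segments with at least 3 cells over both libraries. Whiskers are exact 95% intervals, and those of the libraries overlap for every segment shown.

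Called segments were spread over the whole locus. Segments on the plus strand, the strand of Igkc, join it by deletion, and those on the minus strand by inversion. Plus-strand segments were 46.9% of the 160 genes, 36.4% [25.7, 48.1] of called ad libitum plasma-like cells and 32.3% [16.7, 51.4] of FMD ones, and 53.6% [47.0, 60.1] and 51.4% [44.4, 58.4] of B-like Igkv UMIs. The median distance to Igkc was 1487 kb over the genes, 1499 and 1119 kb over plasma-like cells, and 2094 and 1990 kb over B-like UMIs. The gene values for strand and distance include annotated pseudogenes, so they are not a baseline of usable segments. A gene list without pseudogenes was not compared. Cells of 1 expanded clone share a segment, so cells are not independent draws.

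Paired with a heavy chain V call in the same cell, 76 ad libitum cells showed 65 heavy and light segment pairs and 28 FMD cells showed 26. In the ad libitum library 7 pairs recurred, holding 18 cells, the largest with 4 cells, and in the FMD library 2 pairs recurred with 2 cells each. With both libraries together 12 pairs recurred, holding 29 cells. Some of the 12 recurred only across the libraries, which hold different mice. Whether cells that share a pair came from 1 clone was not tested.

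UMIs assigned to Iglv1 were found mostly in cells whose constant RNA was kappa. Gene counts do not show whether such a UMI is an Iglv1 transcript or a read of another RNA assigned to Iglv1. The Iglv1 values of kappa and lambda cells are therefore those of the assignment. Of the 7624 Iglv UMIs in the ad libitum library 98.3% were in plasma-like cells, and of the 1963 in the FMD library 93.6% were. When Igkv and Iglv were counted together, Iglv1 was the leading V segment, with 46 of 78 called ad libitum plasma-like cells (59.0% [47.3, 70.0]) and 16 of 29 FMD ones (55.2% [35.7, 73.6]). Igkc was the main constant gene in 40 of those 46 and 16 of those 16 cells. Over all B lineage cells called for Iglv1, Iglc1 was the main constant gene in 3 of 64 (4.69% [0.977, 13.1]), Iglc2 in 3 and Igkc in 58.

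The largest Iglv1 values lay in kappa cells rich in Igkc. The cell with most had 837 Iglv1 UMIs beside 30325 of Igkc, 4 of Iglc1 and 74 Igkv UMIs, all of them from Igkv14-111. The next ad libitum cells had 724 and 556, and the highest FMD cell had 543 Iglv1 UMIs with 0 of Iglc1. In each library 8 kappa cells held 55.7% and 77.2% of the Iglv1 UMIs of kappa plasma-like cells, with a median of 2.00 and 1.00 Iglc1 UMIs among them. Across kappa cells the logarithms of Iglv1 and Igkc had a Pearson correlation of 0.64 (84 cells) and 0.61 (32 cells), values that share each cell's depth. In the same cells the correlation of Iglv1 was 0.59 and 0.49 with Iglv3, and 0.0047 and -0.21 with Iglc1.

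Iglv1 was also set against the constant gene of each cell's own type. Summed over cells, kappa plasma-like cells had 5.61 and 3.50 Iglv1 UMIs per 1000 Igkc UMIs, and the lambda cells had 3.62 per 1000 Iglc UMIs. The sums rest on the few richest kappa cells: cell by cell the median was 1.86 in each library's kappa cells (range to 27.6 and 15) and 3.68 in the 7 lambda cells (range to 5.94). Per 1000 Iglc UMIs the kappa cells had 740 and 527. All 6 lambda cells with a V call were called for Iglv1, at 4 to 115 UMIs. Their main constant gene was Iglc1 in 3 and Iglc2 in 3. Iglv1 (chr16:19085017-19085500) lies downstream of Iglc2 (chr16:19198396-19200351) on their minus strand. Igkv UMIs were 0 in 5 of the 7 lambda cells. Iglv2, which shares 22.2% of the 50-base windows of Iglv1, differed: 5 of the 7 lambda cells held it (25 UMIs in all), against 10 of 84 ad libitum kappa cells (12 UMIs) and 0 of 32 FMD ones.

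**Figure D5:**
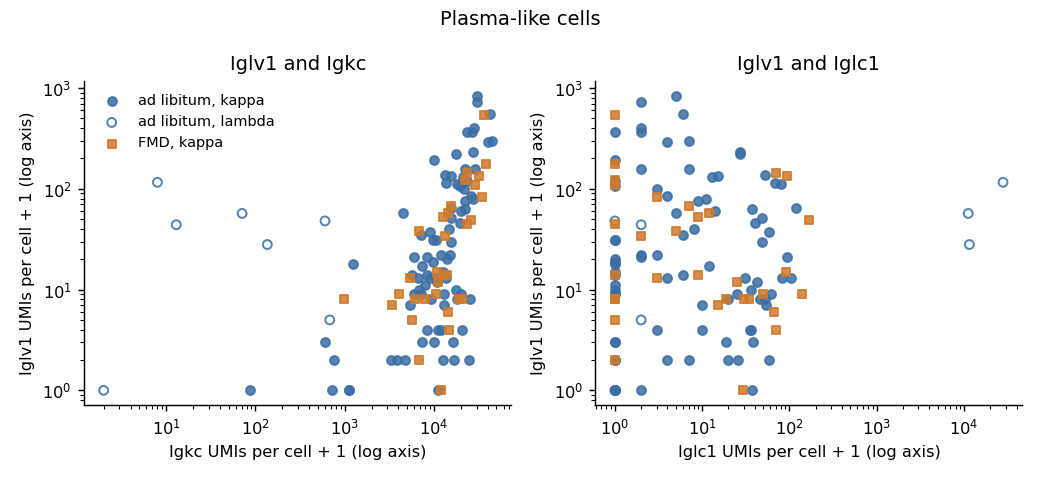
Iglv1 UMIs against Igkc UMIs (left) and against Iglc1 UMIs (right) in the plasma-like cells, with 1 added to each value and log axes. The 8 ad libitum kappa cells with most Iglv1 have at least 23632 Igkc and at most 6 Iglc1 UMIs, the 8 such FMD cells have at least 15371 Igkc and at most 93 Iglc1 UMIs, and the 3 cells with most Iglc1 have 27 to 115 Iglv1 UMIs.

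Iglv3 was at 303 and 63 UMIs in plasma-like cells, and at 298 of those 303 in kappa cells. Iglc4, annotated as a constant gene, had 13 and 11 UMIs over all kept cells.

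Other genes of the light chain pathway were mostly within 2-fold of each other between the libraries in B-like cells. Of 7 genes for recombination and the surrogate light chain, 3 had a UMI in B-like cells. Vpreb3, a chaperone-like partner of the B cell receptor, had 2806 and 2152 UMIs there (log2 ratio -0.27 [-0.35, -0.18]), while Dntt, which adds bases at V(D)J joints, had 0 and 1 and Vpreb1 had 2 and 1. In germinal center B-like cells Dntt had 1 and 15 UMIs, fewer over both libraries than the 20 set for genes of these lists. How many cells held them was not counted. The 1 gene of this list with at least 20 UMIs there stood at 0.60, with an interval above 0. Of 13 factors that act on light chain enhancers and promoters, 4 had an interval above 0 and 6 below 0 in B-like cells, and 0 were 2-fold apart. By the same interval 9.61% of all genes with at least 20 UMIs in B-like cells were above and 8% below 0. A gene with more UMIs has a narrower interval and leaves out 0 at a smaller ratio. These shares were not matched to the lists for depth. The median of the 13 factors was 0.04, against 0.00 over those 10478 genes. Pou2f2, an octamer-binding factor, stood at -0.27 [-0.37, -0.18] and Ikzf3 at 0.15 [0.07, 0.24]. Of 9 B cell receptor partners 2 were above, 1 below and 6 across 0, against the same 9.61% and 8% of genes, with a median of 0.01. The signaling subunit genes Cd79a and Cd79b stood at -0.03 [-0.06, -0.0037] and 0.01 [-0.04, 0.06].

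In plasma-like cells 4 of the 13 factors were above and 2 below 0, against 6.62% and 5.09% of 7007 genes, with a median of 0.18 against 0.04. Those shares were not matched for depth either. One was 2-fold apart, Pax5, which maintains B cell identity, with 21 and 1 UMIs (-3.10 [-8.47, -0.46]). Pou2af1, the coactivator of octamer-binding factors, had 784 and 420 UMIs (0.39 [0.22, 0.57]), and Ebf1 had 162 and 41 (-0.69 [-1.22, -0.19]). Cd79a was at 0.76 [0.65, 0.88]. B cell markers were detected in at least 10% of plasma-like cells for 6 of 12 genes with ad libitum feeding and 7 of 12 with FMD, at summed levels of 1697 and 2422 per 1000000 other UMIs, and their part in these values was not tested.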

How the data were processed

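Per the file headers and the submitters' processing notes, the authors used Cell Ranger 3.1.0, and the notes also name CASAVA 1.8, Seurat 2.3.4 and GRCm38. The deposited matrices hold raw counts, UMIs per gene and barcode, with at least 500 per barcode (35712762 ad libitum and 35280790 FMD). Barcodes with under 200 genes (475 and 441), over 20% mitochondrial UMIs (661 and 694) or a doublet call (98 and 135) were removed. Scrublet marked only 0.04% in each library, so cells with 2 of the B, T and myeloid panels were removed too. Cells were clustered with scanpy 1.11.5 and leidenalg 0.10.2 without immunoglobulin genes (resolution 1), and named from fixed markers. The naming rule was adjusted after the clusters were seen. Kappa, lambda and V calls follow the thresholds given with the results. Intervals are Clopper-Pearson for shares and conditional Poisson for ratios. PCR and free RNA are not covered by them. With 1 library per diet no test was made. The calculations were tested on simulated data. The simulated kappa and lambda cells were set further apart than the B-like cells here, so that test does not cover cells with mixed counts. Members, lists and naming rules (all Iglc and Iglv genes, and the most called Igkv segments per class) were chosen with earlier results of these data known. Alternatives were other thresholds, no thinning, 10% mitochondrial UMIs, no doublet removal and resolution 0.5.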

Additional observations from a re-analysis of the deposited data

How the results depend on the processing

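No paired analysis was possible because each diet had 1 library. Of 41 recomputed main results that have a counting interval, 34 stayed within that of the reported value and 7 moved outside it. A further 7 results have no interval. They were counts of V segments in B-like cells and were 0 in every setting. The 13 recomputed log2 ratios all stayed below 0. The log2 ratio of summed Iglc over kept cells moved to -2.32 when scaled to all UMIs, -2.40 at 10% mitochondrial UMIs, -1.98 without the cell richest in Iglc in each library, -0.498 without lambda plasma-like cells and -0.252 without plasma-like cells. Its counting interval is narrow, since it rests on many UMIs of few cells. The leading V segment of ad libitum plasma-like cells, Iglv1 at 59.0% of called cells, had 73.5% of V UMIs, and with Igkv genes only in kappa cells Igkv1-110 led at 13.0%. The lambda percent of B-like cells ran from 1.78% to 7.85% (ad libitum) and 1.62% to 6.65% (FMD) over the settings, and the log2 ratio from -0.33 to -0.04. T-like cells with a call were 52.7% and 15.4% without thinning. Depth limits V calls in B-like cells, and the 32 FMD plasma-like cells limit any statement on rare lambda cells.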

Other observations

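Barcodes removed by the filters held light chain RNA too. Among removed barcodes with a high mitochondrial share or a doublet call, 12 of 759 ad libitum and 1 of 829 FMD barcodes had over 20% of UMIs from light chain genes, and light chain UMIs were 1.69% and 0.281% of their totals. Macrophage or dendritic-like cells showed the same order for Iglc1 as T-like cells, with 32 UMIs in 79 ad libitum cells and 1 UMI in 139 FMD cells, or 0.405 and 0.00719 per cell. Igkc had 4.05 and 2.55 UMIs per cell, the same order, and Iglc3 0.215 and 0.201.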
